A study of Mus musculus with 8 samples.

Results

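Striated muscle genes were followed in the nuclei of sphincter 1, 1 of 2 nuclear classes of the pupillary sphincter of the mouse iris, and in the other 9 cell types of the same dissections. The 10 listed genes were selected on their levels in sphincter 1 in the same nuclei, so the levels that set sphincter 1 apart from other cell types are given as a description with no test. Of the 10, 9 were found among the 22873 genes of the count tables: *Ttn*, *Mybpc1*, *Ldb3*, *Synpo2l*, *Actn2*, *Neb*, *Ctnna3*, *Ckm* and *Myf6*. *Myom1* was not analysed here. For 7 of the 9 genes the highest level of the 10 cell types in untreated irises was in sphincter 1, and for *Neb* and *Actn2* it was not.

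The nuclei came from 8 single nucleus RNA-seq (snRNAseq) libraries, each made from 5 or 6 pooled irises of female albino wild type mice aged 6 to 8 weeks, with varying amounts of ciliary body attached. The 3 untreated libraries had no drops. For the 3 constricted libraries, drops of 5% pilocarpine, a muscarinic agonist that contracts the sphincter, were given hourly and tissue was taken at 6.5 hours, with the mice in the light. For the 2 dilated libraries, the drops held 5% phenylephrine, an adrenergic agonist that contracts the dilator, and 1% cyclopentolate, a muscarinic blocker that relaxes the sphincter, and the mice were in the dark for the same time. The drug, the state of the pupil and the light therefore cannot be told apart. The libraries of a condition are the replicates, and the nuclei of 1 library are not.

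In skeletal and cardiac muscle, actin and myosin filaments are ordered into sarcomeres. Titin spans the sarcomere from the Z disc to the M band and acts as a molecular spring, myosin binding protein C decorates the thick filament, nebulin runs along the thin filament, and alpha-actinin crosslinks thin filaments at the Z disc. Smooth muscle has no sarcomeres and anchors its filaments at dense bodies. The mouse iris sphincter is classed as smooth muscle.

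Promoter sequences are shown for 4 genes whose levels differed between conditions in some cell type, because genes of muscle are often controlled through short motifs near the start of transcription. The windows are from RefSeq on GRCm38.p6 (mm10), run from 250 bases before to 50 bases after an annotated start, and are written on the strand of the gene. Capitals mark each match, on either strand, of 4 motifs: the E-box CANNTG, the MCAT element CATTCC, the MEF2 site and the CArG box. Basic helix-loop-helix factors, myogenic and other, bind E-boxes, TEAD factors bind the MCAT element and serum response factor binds the CArG box. None of the marked matches in a printed window overlapped another. The windows are those of *Ttn* (chr2:76982498-76982797, minus strand), the first of *Synpo2l* (chr14:20668305-20668604, minus strand), the first of *Ldb3* (chr14:34588632-34588931, minus strand) and *Actn2* (chr13:12340683-12340982, minus strand).
Ttn: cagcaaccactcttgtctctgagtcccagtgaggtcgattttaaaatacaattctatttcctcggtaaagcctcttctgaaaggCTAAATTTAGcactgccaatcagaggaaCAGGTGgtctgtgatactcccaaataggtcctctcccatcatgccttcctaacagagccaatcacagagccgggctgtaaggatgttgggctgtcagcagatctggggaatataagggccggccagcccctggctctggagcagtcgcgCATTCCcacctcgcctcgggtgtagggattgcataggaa
Synpo2l: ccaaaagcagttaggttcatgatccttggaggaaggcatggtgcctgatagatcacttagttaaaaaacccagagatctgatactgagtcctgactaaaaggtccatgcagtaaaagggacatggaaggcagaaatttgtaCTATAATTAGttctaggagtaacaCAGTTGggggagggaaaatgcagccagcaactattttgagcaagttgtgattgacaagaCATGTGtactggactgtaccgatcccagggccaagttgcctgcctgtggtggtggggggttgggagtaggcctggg
Ldb3: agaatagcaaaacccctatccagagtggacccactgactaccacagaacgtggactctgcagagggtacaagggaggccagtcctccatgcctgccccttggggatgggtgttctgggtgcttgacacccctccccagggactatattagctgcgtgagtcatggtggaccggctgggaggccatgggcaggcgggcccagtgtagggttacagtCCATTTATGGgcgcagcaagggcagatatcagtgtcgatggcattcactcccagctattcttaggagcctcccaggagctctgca
Actn2: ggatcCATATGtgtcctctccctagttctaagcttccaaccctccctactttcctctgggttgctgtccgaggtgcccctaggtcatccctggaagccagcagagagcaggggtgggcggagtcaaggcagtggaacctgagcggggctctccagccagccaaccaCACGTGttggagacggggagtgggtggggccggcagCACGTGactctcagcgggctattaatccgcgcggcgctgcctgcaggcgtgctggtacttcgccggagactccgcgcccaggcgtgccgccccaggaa
The *Ttn* window held a MEF2 site that began 166 bases before the start, an E-box 138 bases before it and an MCAT element 12 bases into the transcript. *Synpo2l* held a MEF2 site 109 bases before the start and E-boxes at 85 and 26 bases, *Ldb3* a CArG box at 35 bases, and *Actn2* 3 E-boxes at 245, 84 and 48 bases. Among all 32851 windows of the genome table, 72.3% held an E-box, 14.7% an MCAT element, 3.19% a MEF2 site and 1.63% a CArG box. In all, 7 of the 9 genes had windows, 11 together. The windows of *Ckm* and *Mybpc1* held 1 and 3 E-boxes and no other match, and no match was in the first of the 3 windows of *Ctnna3*. A match is a run of letters only, and binding was not measured.

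Sphincter 1 made up 1011 of 34357 nuclei, between 1.41% and 4.77% of a library. They were 50, 184 and 310 nuclei in the untreated libraries, 103, 34 and 95 in the constricted libraries and 103 and 132 in the dilated libraries. The median number of unique molecular identifiers (UMIs, the counted transcript molecules) per sphincter 1 nucleus was between 2882 and 4634, highest in constricted library 2, which also had the fewest nuclei. Summed over the nuclei there were 1920941 UMIs in untreated, 770464 in constricted and 800035 in dilated irises, and levels below are CPM, the UMIs of a gene per 1e+06 summed UMIs of the library and cell type. The 4 sphincter 1 markers used here without a sarcomeric role (*Chrm3*, *Syt1*, *Rbfox3* and *Nptx2*) summed to 8823 to 9956 CPM in untreated, 6254 to 9624 in constricted and 9221 to 10832 in dilated libraries. Untreated library 1 and dilated library 1 shared 63 cell barcodes, against at most 18 for the other pairs of libraries, and 3 of them were sphincter 1 nuclei in both. All calls in sphincter 1 given below were also made without nuclei with a shared barcode.

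The thick filament and Z disc genes of the list that were highest in sphincter 1 were *Mybpc1*, *Ttn*, *Ldb3* and *Synpo2l*. *Mybpc1*, which codes for the slow skeletal form of myosin binding protein C, was at 1962, 2046 and 2147 CPM in the 3 untreated libraries. *Ttn* was at 2038, 1325 and 1687 CPM. *Ldb3*, a PDZ and LIM domain protein of the Z disc, was at 435, 234 and 272 CPM. Among these 4, the untreated libraries lay closest together, relative to their mean, for *Mybpc1*. *Synpo2l*, an actin-associated protein of the Z disc, was low, with 3, 12 and 42 UMIs and 16.1, 19.1 and 37.9 CPM.

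**Figure D1:**
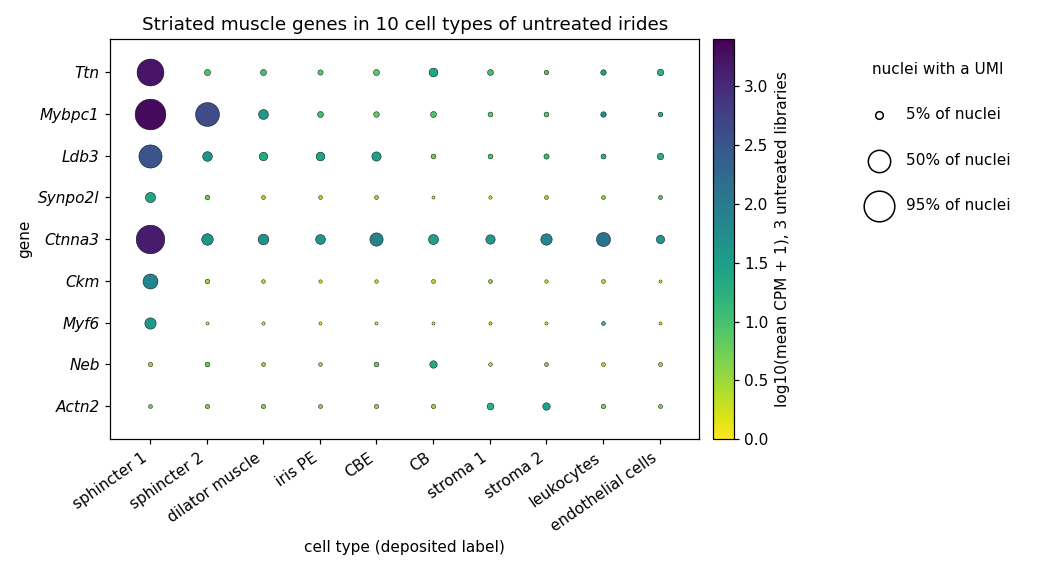
Levels of the 9 striated muscle genes in the 10 deposited cell types of the 3 untreated libraries. Dot colour is log10(mean CPM + 1) and dot area grows with the percentage of nuclei with at least 1 UMI. *Ttn*, *Mybpc1* and *Ctnna3* have the largest and darkest dots in sphincter 1, *Mybpc1* has a second one in sphincter 2, and *Neb* and *Actn2* are highest in CB and stroma 2.

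The other genes of the list that were highest in sphincter 1 act at cell contacts, in energy supply and in transcription. *Ctnna3* codes for alpha-T-catenin, an actin-linking catenin of the intercalated disc of the heart, and was at 1505, 1394 and 1411 CPM. *Ckm*, the cytosolic muscle creatine kinase, was at 37.6, 89.3 and 83.0 CPM, and *Myf6*, a myogenic basic helix-loop-helix factor that is kept on in adult skeletal fibres, at 48.4, 28.7 and 38.8 CPM. The *Myf6* values rest on 9, 18 and 43 UMIs. In dilator muscle, *Ckm* was at 1.29 ± 0.766 CPM, *Myf6* at 0.252 ± 0.239 CPM and *Ctnna3* at 42.8 ± 23.5 CPM (SD, n = 3).

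Because reads from introns were counted, long genes can collect more UMIs. Genes are compared with each other only per kb of gene span or of exon in GENCODE vM21. On the level per kb of span in untreated sphincter 1, the order was *Mybpc1* (23.6 CPM per kb), *Myf6* (20.5), *Ttn* (6.04), *Ldb3* (5.06), *Ckm* (3.87), *Synpo2l* (2.59) and *Ctnna3* (0.913). *Myf6*, of which few UMIs were seen, was thus next to *Mybpc1* for its 1.885 kb of span. *Ctnna3* came last of these 7 on this scale, with 1573.57 kb the longest span of the list. *Actn2* (0.0549 CPM per kb) and *Neb* (0.00937) were lower still. Per kb of exon the order was *Mybpc1* (453 CPM per kb), *Ctnna3* (199), *Ldb3* (51.4), *Myf6* (30.6), *Ckm* (24.0), *Ttn* (14.4) and *Synpo2l* (5.27). *Actn2* (1.03) and *Neb* (0.0853) were again the lowest. The places of *Ctnna3*, *Ttn* and *Myf6* thus depend on the length used.

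The margin by which sphincter 1 exceeded the next cell type differed widely along the list. *Ttn* was 58.9 times its level in leukocytes, the next type, at 28.6 ± 44.3 CPM (SD, n = 3), and 21 of the 22 untreated leukocyte UMIs of *Ttn* were in 1 library, in 3 nuclei. *Ckm* was 27.9 times its level in stroma 1, and *Ctnna3* 11.8 times its level in leukocytes. For *Ldb3* and *Mybpc1* the next type was sphincter 2, the other sphincter class, with a ratio of 7.18 for *Ldb3* and 4.90 for *Mybpc1*. *Synpo2l* (3.77) and *Myf6* (3.50) had the smallest ratios, against endothelial cells and leukocytes, where the library means rest on 1 UMI each in 149 and 193 nuclei. These ratios moved with single libraries. On the scale of log2(CPM + 1), the ratio of *Ttn* was 5.83, and 5.10 without untreated library 1, that of *Ckm* 4.34, and 3.70 without untreated library 2, and that of *Myf6* 1.72, and 4.66 without untreated library 1. For *Synpo2l* it was 1.77, and 2.62 without untreated library 1 or 0.80 without untreated library 3. In dilator muscle the level of *Mybpc1* was 53.5 times lower than in sphincter 1. Among 6404 genes with at least 50 UMIs in untreated sphincter 1, 10.7% were highest there, and all 7 of the list with that many UMIs were, as the selection of the list would give. Of these 6404 genes, 1 had a larger ratio to the next type than *Ttn* and 2 had a larger ratio than *Ckm*.

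Taking all 8 libraries, 88.1% of the 5959 *Ttn* UMIs of the study were in sphincter 1, a class with 1011 of the 34357 nuclei. The share was 87.7% for *Myf6*, 73.7% for *Mybpc1*, 71.7% for *Ckm*, 50.5% for *Ctnna3*, 40.1% for *Synpo2l* and 37.6% for *Ldb3*. Of all UMIs of the study, 3.19% were in sphincter 1. The 11606 dilator nuclei held 15.4% of the *Ctnna3* and 25.9% of the *Ldb3* UMIs, against 38.1% of all UMIs. For *Neb* and *Actn2* the share in sphincter 1 was 2.25% and 0.724%.

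*Neb* and *Actn2* did not have the pattern of the list. *Neb*, nebulin of the thin filament, had 0, 2 and 4 UMIs in the untreated sphincter 1 libraries and was highest in CB, the ciliary body class, at 20.2, 23.8 and 13.5 CPM. Sphincter 1 was the sixth of the 10 types for *Neb*, and it did not stand apart from its neighbours in that order, sphincter 2 (5.23 ± 3.60 CPM) to iris PE (2.09 ± 1.82; SD, n = 3). *Actn2*, sarcomeric alpha-actinin, had 1, 4 and 0 UMIs in untreated sphincter 1. It was highest in stroma 2 at 33.8, 26.6 and 21.2 CPM, followed by stroma 1 at 12.6, 12.4 and 22.2 CPM, and the ranges of these stromal types overlapped.

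Within sphincter 1 of untreated irises, *Mybpc1* had a UMI in 95.4% of nuclei, *Ctnna3* in 82.4%, *Ttn* in 72.8%, *Ldb3* in 53.7%, *Ckm* in 21.9%, *Myf6* in 11.9% and *Synpo2l* in 9.56%. Among other cell types, *Ttn* had a UMI in 2.55% of stroma 1 nuclei, at a median of 2691 UMIs per nucleus. In CBE (ciliary body epithelium) it was 2.68% at 3223, against a median of 3332 in sphincter 1. In iris PE it was 1.86% at 3173 and in CB 6.94% at 3167.5. The 2.71% of dilator nuclei with a *Ttn* UMI, at 3410, was above the shares of stroma 1, CBE and iris PE and below that of CB. Whether any of these shares is background RNA was not measured. Thinning every nucleus to 1000 UMIs, which left out 4 of 544 nuclei, gave 79.6% for *Mybpc1*, 62.6% for *Ctnna3*, 55.4% for *Ttn* and 21.1% for *Ldb3*.

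The 4 genes with the most UMIs, *Ttn*, *Mybpc1*, *Ctnna3* and *Ldb3*, were found together in 8.29% to 10% of nuclei of an untreated library at 1000 UMIs, and none of the 4 in 6.63% to 14%. Nuclei with a *Ttn* UMI also more often had one of the others. In untreated irises, *Ctnna3* was detected in 71.6% of the 299 nuclei with a *Ttn* UMI and in 51.5% of the 241 without, and *Ldb3* in 26.4% and 14.5%. *Mybpc1* was detected in 73.9% of the nuclei without a *Ttn* UMI, so the absence of *Ttn* at this depth did not mark nuclei that lacked the other genes. These shares describe nuclei of 3 pooled libraries and carry no test.

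**Figure D2:**
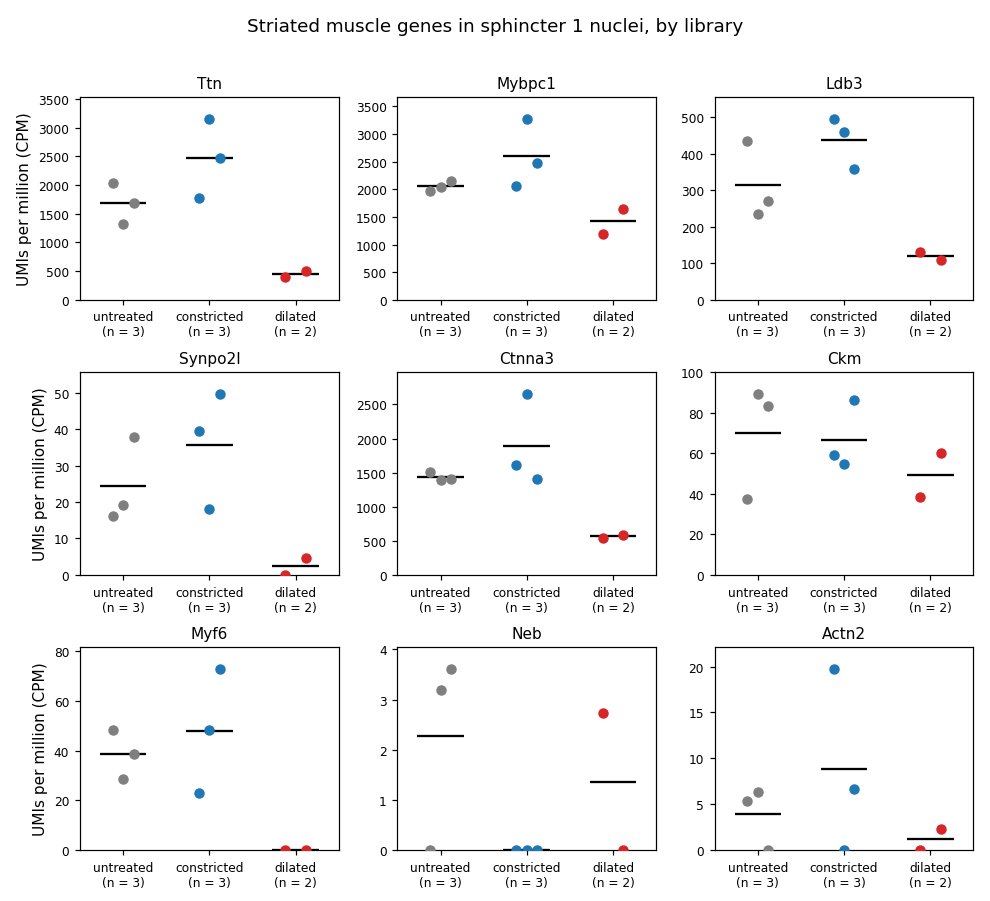
Levels in sphincter 1 nuclei of each library, with 1 point per library and a bar at the mean of the condition; the y axis is CPM and starts at 0. *Ttn*, *Ctnna3*, *Ldb3*, *Mybpc1*, *Myf6* and *Synpo2l* are lower in both dilated libraries than in every untreated library, while *Ckm* overlaps and *Neb* and *Actn2* are near 0.

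In dilated irises, *Ttn*, *Ctnna3*, *Ldb3*, *Myf6* and *Synpo2l* fell in sphincter 1, and *Mybpc1* and *Ckm* did not pass the test. The test was edgeR's quasi-likelihood test on summed UMIs in 1 fit of all 8 libraries, with p-values adjusted by Benjamini-Hochberg over all 7112 genes tested, and a gene is called where the log2 fold change exceeded 0.6 in size and the adjusted p was below 0.05. Of the 7112 genes, 139 were called (1.95%), 94 of them lower (1.32%), and 743 had an unadjusted p under 0.05. Of the 7 genes of the list that were tested 5 were called, all lower. *Neb* and *Actn2* had too few UMIs for the test. Both dilated libraries were below every untreated library for 6 of the 7, against 16.3% of all genes tested. The median log2 fold change of all genes tested was -0.0022, and that of the 7 was -1.30. The list was chosen with earlier results of these same data known, so its contrast with all genes is a description only. *Myf6* and *Synpo2l*, with 0 and 2 UMIs in dilated sphincter 1, passed the filter on low counts only through the untreated and constricted libraries, where they were higher. Their calls are therefore no further support, though both are among the 5 called, the 6 of 7 and the 7 behind the median. DESeq2 gave neither an adjusted p and called 3 of the list. The untreated libraries are also the controls for constriction, so the comparisons share them.

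*Ttn* was at 393 and 510 CPM in the dilated libraries, against 1325 to 2038 in untreated and 1777, 3159 and 2468 in constricted libraries. The dilated libraries lay below all others without overlap, and the share of all genes with this pattern was not counted. The log2 fold change of dilated against untreated was -1.84 ± 0.27 (standard error; edgeR adjusted p = 0.000499). *Ttn* remained called with each library left out in turn, with log2 fold changes between -2.08 and -1.62.

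*Ctnna3* was at 545 and 586 CPM in the dilated libraries and between 1394 and 2657 in the others. Its log2 fold change was -1.30 ± 0.25 (edgeR adjusted p = 0.00541). *Ldb3* was at 131 and 108 CPM after dilation, against 234 to 435 in untreated and 497, 460 and 358 in constricted libraries. The log2 fold change of *Ldb3* was -1.29 ± 0.27 (edgeR adjusted p = 0.0114). For both genes the dilated libraries lay below all 6 others, a pattern whose share over all genes was not counted.

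*Myf6* had 0 UMIs in both dilated libraries, of 800035 in all, which allows up to 3.75 CPM. The untreated libraries pooled to 36.4 CPM, so that *Myf6* was at least 9.72-fold lower after dilation, with the floor of 3 counts taken over both dilated libraries. In constricted libraries it had 7, 8 and 22 UMIs, or 23.0, 48.4 and 73.0 CPM. *Myf6* was called lower by edgeR (adjusted p = 0.00337), with the limit on the filter given above, and DESeq2 gave no adjusted p. *Synpo2l* had 0 and 2 UMIs in the dilated libraries (0 and 4.62 CPM) and 12, 3 and 15 in the constricted ones (39.5, 18.2 and 49.8 CPM), with a log2 fold change after dilation of -3.31 ± 0.85 (edgeR adjusted p = 0.0427). The call of *Synpo2l* was the least firm, as it was lost with any of 5 libraries left out.

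*Mybpc1* was at 1197 and 1643 CPM in the dilated libraries, below the 1962 to 2147 of the untreated ones, with a log2 fold change of -0.49 ± 0.23 (edgeR adjusted p = 0.457). Both dilated libraries were thus lower for *Mybpc1*, and the difference did not pass the test. *Ckm* was at 38.2 and 60.0 CPM after dilation and overlapped the untreated range of 37.6 to 89.3 (log2 fold change -0.60 ± 0.34, edgeR adjusted p = 0.582).

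With 2 dilated libraries, the calls rest on both. Without dilated library 2, only *Ttn* of the list was called, at a log2 fold change of -2.08 (edgeR adjusted p = 0.00374), and the adjusted p was 0.0514 for *Ctnna3*, 0.0539 for *Myf6* and 0.188 for *Ldb3*. Without dilated library 1, *Ttn* (0.0147) and *Myf6* (0.0318) were called and *Ctnna3* (0.0831) and *Ldb3* (0.0778) were not. The log2 fold changes without dilated library 2 and without dilated library 1 were -1.39 and -1.19 for *Ctnna3* and -1.18 and -1.37 for *Ldb3*, close to those with both.

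The fall was seen both in the share of nuclei with a UMI and in the UMIs per such nucleus. At 1000 UMIs per nucleus, *Ttn* was detected in 55.4% of untreated, 66.1% of constricted and 32.2% of dilated nuclei, *Ctnna3* in 62.6%, 68.3% and 42.6%, *Ldb3* in 21.1%, 26.5% and 7.39%, and *Mybpc1* in 79.6%, 83.5% and 67.4%. Without thinning, nuclei with a *Ttn* UMI held 7.78 UMIs of it on average in untreated, 10.3 in constricted and 2.66 in dilated irises. The largest number of *Ttn* UMIs in 1 nucleus was 10 and 15 in the dilated libraries and 25 to 43 in the other 6. Median depths were similar, at 3332, 3029.5 and 3174 UMIs per nucleus for untreated, constricted and dilated.

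**Figure D3:**
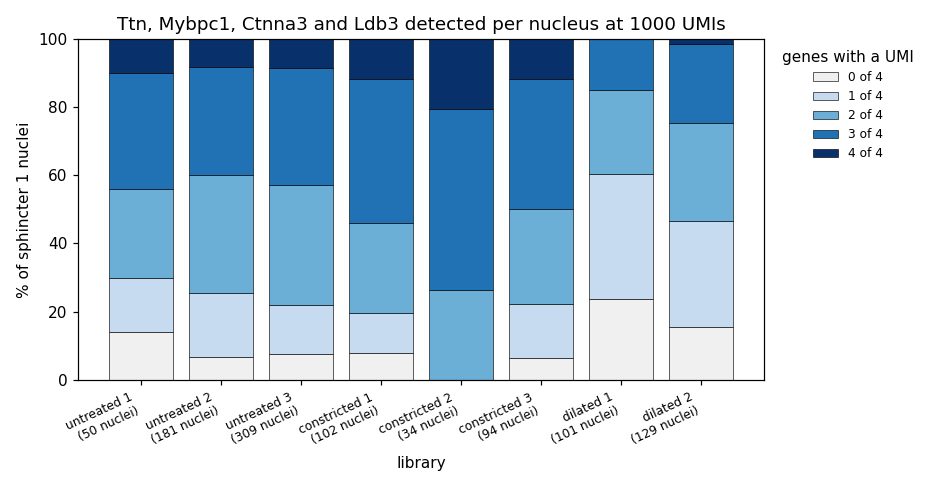
Percentage of sphincter 1 nuclei of each library with a UMI of 0, 1, 2, 3 or all 4 of *Ttn*, *Mybpc1*, *Ctnna3* and *Ldb3*, with every nucleus thinned to 1000 UMIs; the number of nuclei is under each bar. All 4 genes were detected in 8.29% to 10% of nuclei in untreated, 11.7% to 20.6% in constricted and 0% to 1.55% in dilated libraries.

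Counted together per nucleus, all 4 of *Ttn*, *Mybpc1*, *Ctnna3* and *Ldb3* were found at 1000 UMIs in 0% and 1.55% of the nuclei of the dilated libraries, and none of the 4 in 23.8% and 15.5%. In constricted libraries all 4 were found in 11.7% to 20.6% and none in 0% to 7.84%. Constricted library 2, at the upper end, is the one with 34 nuclei. The 9 genes took 0.515% to 0.605% of the sphincter 1 UMIs of an untreated library, 0.609% to 0.968% of a constricted library and 0.231% to 0.291% of a dilated library. The 3 conditions did not overlap in this sum, which *Ttn*, *Mybpc1* and *Ctnna3* dominate. The highest untreated library (0.605%) and the lowest constricted library (0.609%) nearly met. How often sums of other genes have this order was not counted.

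After constriction no gene of the list was called. edgeR called 0 of 7112 genes (0%), with 451 at an unadjusted p under 0.05, and DESeq2 called 14. Log2 fold changes were positive for 6 of the 7 tested genes: *Ttn* 0.59 ± 0.22, *Ldb3* 0.57 ± 0.22, *Synpo2l* 0.47 ± 0.46, *Ctnna3* 0.42 ± 0.21, *Myf6* 0.41 ± 0.40 and *Mybpc1* 0.37 ± 0.20, and *Ckm* was at -0.16 ± 0.31. The sign of *Ckm* changed without untreated library 2 and with the series of library numbers as a block, and that of *Myf6* without constricted library 3. *Ttn* and *Ldb3* had an unadjusted p under 0.05 and adjusted p-values of 0.655 and 0.669 (edgeR). The ranges of constricted and untreated libraries overlapped for *Ttn*, *Ldb3* and *Ctnna3*, and constricted library 2 was the highest of the 8 for *Ttn*, *Mybpc1* and *Ctnna3*. Changes of this size could not be told from the spread between libraries.

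Other thick and thin filament genes were mostly near 0 in untreated sphincter 1. Of 18 genes found on a list of further thick filament and M band genes, 8 had no UMI there, among them the myosin heavy chains *Myh3* and *Myh13*, and 1 was tested. This was *Myl1*, the fast skeletal essential myosin light chain, at 69.9, 68.6 and 105 CPM in untreated and 19.1 and 16.2 CPM in dilated libraries. It fell by 2.24 on the log2 scale (SE 0.43, edgeR adjusted p = 0.00542). *Myl1* passed the filter on low counts only through the untreated and constricted libraries, where it was higher, so its call is no further support. *Mylpf* (7.72 ± 7.98 CPM) and *Obsl1* (20.6 ± 5.65; SD, n = 3) were not tested. On the thin filament list, *Acta1*, skeletal alpha-actin, had 1 UMI in untreated sphincter 1 and *Tnni1* had 0, and neither of the genes tested had an unadjusted p under 0.05 after dilation, *Nebl* at 0.40 ± 0.21 and *Tmod1* at -0.31 ± 0.32. *Tnnc2* (13.4 ± 7.13 CPM) was not tested.

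On the Z disc list, 0 of 9 tested genes were called after dilation by edgeR or DESeq2, 2 had an unadjusted p under 0.05, and the median log2 fold change was -0.28. *Synpo2* (-0.52 ± 0.24), *Nexn* (-0.45 ± 0.21) and *Pdlim3* (-0.28 ± 0.23) were the most counted. In untreated irises *Synpo2* was at 2331 CPM in sphincter 1 and 2081 in sphincter 2, *Nexn* at 727 and 470, and *Pdlim3* at 399 and 333. Of the 9 tested genes, 6 were highest in untreated sphincter 1, against 10.7% of genes with at least 50 UMIs there. Among the 6, *Mypn* was at 85.4 CPM against 3.79 in leukocytes, the next type. *Des* was at 211 CPM against 31.2 in sphincter 2. After dilation *Mypn* was at -0.50 ± 0.31 and *Des* at -0.30 ± 0.24. Of 8 tested genes of excitation-contraction coupling, the release of stored calcium on depolarization, 2 were called and both fell. *Casq2*, the cardiac calcium buffer calsequestrin, fell by 1.80 on the log2 scale (SE 0.34, edgeR adjusted p = 0.00541). At 21.8 and 32.3 CPM in the dilated libraries, *Casq2* passed the filter on low counts only with the untreated and constricted libraries, where it was higher. Its call is therefore no further support. *Jph2*, which tethers the calcium store to the plasma membrane, fell by 0.98 (SE 0.26, edgeR adjusted p = 0.0487). DESeq2 called *Casq2* and not *Jph2* (DESeq2 adjusted p = 0.0512). *Srl* was at -0.50 ± 0.27, and the median of the list was -0.68. In muscle energy metabolism, *Pygm*, muscle glycogen phosphorylase, fell by 1.39 (SE 0.31, edgeR adjusted p = 0.0186) but was not called by DESeq2 (adjusted p = 0.0512), *Pfkm* was at 0.02 ± 0.45, and *Eno3* (21.5 ± 2.48 CPM) was not tested.

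After dilation edgeR and DESeq2 called 0 of 4 further genes of myogenic transcription, 0 of 3 of the neuromuscular junction and 0 of 7 catenins and cell junction genes, with 2, 0 and 0 at an unadjusted p under 0.05. *Mef2a* was at -0.52 ± 0.24, *Mef2d* at -0.55 ± 0.26 and *Myocd*, a coactivator of smooth muscle genes, at 0.03 ± 0.21. *Musk* was at -0.01 ± 0.41, *Rapsn* at -1.01 ± 0.60 and *Lrp4* at 0.46 ± 0.32. Among the catenin relatives, *Ctnna1* was at -0.04 ± 0.25, *Pkp2* at 0.09 ± 0.25 and *Vcl* at 0.39 ± 0.20, whereas *Ctnna3* fell.

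Of 14 smooth muscle contractile genes tested in the same nuclei, edgeR and DESeq2 each called 1, *Tagln*, as higher and 0 as lower, 4 had an unadjusted p under 0.05, and the median log2 fold change was 0.12. *Tagln*, transgelin of the smooth muscle cytoskeleton, was at 898, 679 and 663 CPM in untreated and 1538 and 1708 CPM in dilated libraries and rose by 1.18 (SE 0.22, edgeR adjusted p = 0.00479). *Myh11*, smooth muscle myosin heavy chain, was at 0.21 ± 0.19, *Mylk* at -0.42 ± 0.19 and the noncoding *Carmn* at -0.89 ± 0.31. Differences between lists were not tested. After constriction edgeR called 0 genes of the further lists, with 6 at an unadjusted p under 0.05, and DESeq2 called 1, *Pdlim5* of the Z disc list, named after its value was seen.

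**Figure D4:**
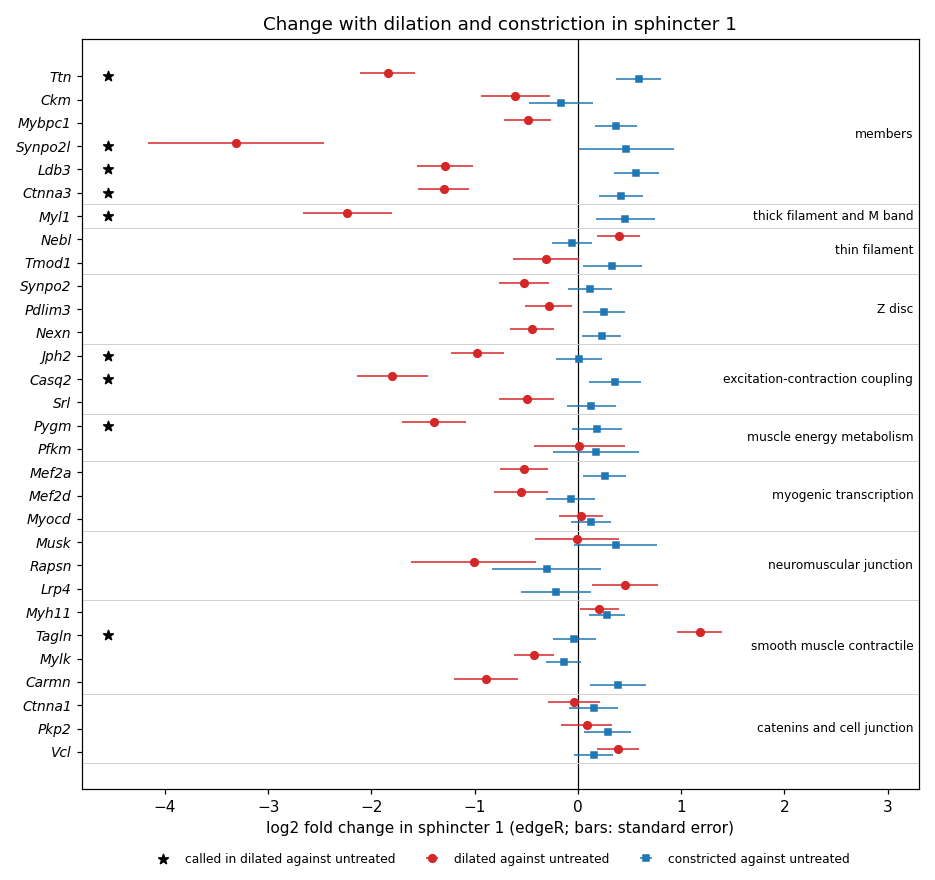
Log2 fold changes in sphincter 1 (edgeR, points; bars are the standard error) for tested genes of the list except *Myf6* and for the named genes of 9 further lists, dilated (circles) and constricted (squares) against untreated; stars mark genes called in dilated against untreated. *Ttn*, *Synpo2l*, *Ldb3*, *Ctnna3*, *Myl1*, *Casq2*, *Jph2* and *Pygm* are left of 0 with a star, and *Tagln* is to the right.

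The genes most alike to the list were found by the Pearson correlation of log2(CPM + 1) with the mean of the 9 genes over the 30 library and cell type sums of untreated irises, among 6397 genes with at least 50 UMIs in untreated sphincter 1. They were *Myl1* (0.95), *Dmd* (0.92), *Akap6* (0.91), *Casq2* (0.90), *Sgca* (0.90), *Kcna4* (0.89), *Gm13938* (0.89), *Gm39033* (0.86), *Nptx2* (0.86) and *Gm36011* (0.86). Sums of 1 library share its nuclei pool, and the correlation is a description. Of these 10, *Myl1*, *Akap6*, *Casq2* and *Kcna4* were called lower after dilation, by 2.24, 2.29, 1.80 and 2.00 on the log2 scale. Of all genes tested, 1.32% were called lower. The calls of *Myl1* and *Casq2* are those already given above. *Kcna4*, at 37.0 CPM in untreated sphincter 1, passed the filter on low counts only through the untreated and constricted libraries, as *Myl1* did. As the 10 were picked for their likeness to the list, these calls are a description only. *Dmd*, which codes for dystrophin, was at 2087 ± 354 CPM in untreated sphincter 1 with a log2 fold change of -0.42 ± 0.21 after dilation, and *Nptx2* was at 0.56 ± 0.24. Within the list, the correlation of a gene with the mean of the others was between 0.70 (*Synpo2l*) and 0.86 (*Ckm*) for 7 genes, and -0.07 for *Neb* and -0.13 for *Actn2*.

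Some genes of the list overlap others on the opposite strand, and whether strand was used in counting is not given in the sources used here. *Gm13938* lies within the span of *Ttn*, and *Lrrtm3* within that of *Ctnna3*, so their UMIs cannot be told apart with certainty. *Lrrtm3* was at 508 ± 52.6 CPM in untreated and 240 ± 23.0 CPM in dilated sphincter 1 (SD, n = 3 and 2) and fell by 1.04 on the log2 scale (SE 0.22, edgeR adjusted p = 0.0128), beside *Ctnna3*. *Gm13938* had 78 UMIs in untreated sphincter 1, beside 3079 of *Ttn*. *A930016O22Rik*, which overlaps *Ckm*, had 46 UMIs beside 155.

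Markers of some other cell types in the sphincter 1 nuclei also differed between untreated and dilated irises. The ranges of the summed markers did not overlap for endothelium, pericyte and leukocyte markers and overlapped for the others. Few UMIs stand behind these, in the dilated libraries 12 and 20 for endothelium, 8 and 10 for pericyte and 4 and 1 for leukocyte markers. On the untreated and dilated means, *Cldn5* (4.96 and 19.3 CPM), *Pecam1* (10.0 and 17.6) and *Cdh5* (0.832 and 1.36) were higher after dilation, and *Erg* (1.36 and 1.15) was not. The pericyte markers did not all rise. How often sums of so few UMIs separate was not counted. Of the iris PE markers, *Zic1* did not overlap, at 10.8 to 90.3 CPM in untreated and 129 to 136 CPM in dilated libraries, from 157 and 106 UMIs. *Otx1* did overlap, at 140 to 201 and 155 to 169 CPM. The stroma 1 markers summed to 376 to 903 CPM in untreated and 882 to 1102 CPM in dilated libraries. Most of it was *Dct*, a pigment cell enzyme, at 333 to 743 and 828 to 1031 CPM. The means of the others were lower after dilation, with overlapping ranges for *Tyr* and *Tfap2a*. *Tyr* was at 114 and 58.3 CPM, *Sox10* at 6.45 and 2.52 and *Tfap2a* at 4.72 and 1.15. *Dct* did not mark stroma 1 alone, as it was at 5220 CPM in untreated and 7708 CPM in dilated dilator muscle. Endothelium markers were at 11.2 to 21.5 and 32.7 to 46.2 CPM, pericyte markers at 10.8 to 14.4 and 21.8 to 23.1, iris PE markers at 151 to 289 and 284 to 305, dilator markers at 102 to 178 and 159 to 229, stroma 2 markers at 91.4 to 159 and 73.6 to 155, and leukocyte markers at 14.4 to 37.6 and 2.31 to 10.9. The sphincter 1 marker sum above was not lower after dilation, at 9221 to 10832 CPM against 8823 to 9956. Most of it was *Chrm3* and *Syt1*, with untreated means of 3958 and 4497 CPM and dilated means of 4587 and 4648 CPM. The sum did not mark sphincter 1 alone, as it was at 2657 to 3309 CPM in untreated sphincter 2. The mean of *Rbfox3* was lower after dilation, at 634 against 768 CPM, with overlapping ranges. That of *Nptx2* was higher, at 157 against 112 CPM. When sphincter 1 nuclei with a UMI of any of 7 markers of other types were left out, a subset picked once results were known that kept 199 of 544 untreated and 99 of 235 dilated nuclei and 3203 tested genes, *Ttn* was still called (log2 fold change -1.67, edgeR adjusted p = 0.000295). The others were not, with adjusted p-values of 0.0579 for *Ldb3* and 0.0915 for *Ctnna3* and *Myf6*, at log2 fold changes of -1.15 for *Ldb3* and -0.86 for *Ctnna3*. *Synpo2l* had too few UMIs for this test. The subset kept 19 of 103 nuclei of dilated library 1, 80 of 132 of dilated library 2 and 15 of 50 of untreated library 1. It was thus uneven between libraries, and the part of other cell types in the calls was not tested further.

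Markers of skeletal fibres were close to 0. The 7 genes found of 10 summed to 5.38 to 30.3 CPM in untreated, 9.87 to 49.8 CPM in constricted and 2.73 to 13.8 CPM in dilated sphincter 1, with *Cacna1s*, the skeletal calcium channel, at 0 UMIs in all 8 libraries. The 4 cardiomyocyte markers found summed to 4.78 to 10.8, 12.1 to 19.9 and 2.31 to 13.6 CPM, and the satellite cell markers to 0 in all untreated libraries.

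Outside sphincter 1, 25 pairs of a gene of the list and a cell type could be tested in each comparison. After dilation 5 pairs were called and 9 had an unadjusted p under 0.05, and after constriction 0 were called and 2 had an unadjusted p under 0.05 (edgeR). The 9 were in sphincter 2, dilator muscle, iris PE and stroma 2. Of all genes tested there, 897 of 6691, 4351 of 15395, 1261 of 14128 and 1490 of 12788 had such a p. The 2 after constriction were in stroma 2, where 676 of 12788 genes had such a p. The shares of all genes called are given with each cell type. In iris PE, 84 of 14128 genes were called after dilation. *Ttn*, *Mybpc1* and *Ldb3* had an unadjusted p under 0.05 there and were not called (edgeR adjusted p between 0.446 and 0.540). Their log2 fold changes there were -0.99 ± 0.44, -0.72 ± 0.29 and -0.71 ± 0.28.

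In sphincter 2, *Mybpc1* was at 559, 356 and 342 CPM in untreated, 318, 484 and 333 CPM in constricted and 178 and 208 CPM in dilated libraries. The dilated libraries were below all others, and *Mybpc1* fell by 0.95 (SE 0.25, edgeR adjusted p = 0.0332), where 192 of 6691 genes were called (2.87%). The share of all genes in sphincter 2 with dilated libraries below all others was not counted. *Ldb3* was at 1.03 ± 0.45 in sphincter 2 (edgeR adjusted p = 0.287), with 57.9 and 63.0 CPM in the dilated libraries inside the untreated range of 23.7 to 82.5. The call of *Mybpc1* was lost with any of the untreated or dilated libraries left out, at log2 fold changes between -1.13 and -0.78.

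In dilator muscle, where 2054 of 15395 genes were called after dilation (13.3%), 3 genes of the list fell. *Mybpc1* was at 34.9, 40.4 and 39.7 CPM in untreated, 42.6, 62.0 and 26.8 CPM in constricted and 11.2 and 11.8 CPM in dilated libraries, and fell by 1.58 (SE 0.30, edgeR adjusted p = 0.00356). *Ldb3* was at 24.3, 16.5 and 22.8 CPM against 8.79 and 7.41 CPM and fell by 1.17 (SE 0.26, edgeR adjusted p = 0.0111). *Ttn* was at 11.8, 8.30 and 8.38 CPM against 4.25 and 3.61 CPM and fell by 1.03 (SE 0.29, edgeR adjusted p = 0.0337). For all 3 the dilated libraries lay below the other 6, and the share of all genes with this pattern was not counted. Untreated *Ttn* in dilator muscle was at 9.51 ± 2.02 CPM, near the 9.37 ± 1.56 CPM of stroma 1 (SD, n = 3), and background RNA was not measured. Untreated *Ldb3* in dilator muscle (21.2 ± 4.16 CPM) was not above its level in iris PE (25.1 ± 5.82) or CBE (27.2 ± 9.43; SD, n = 3). The call of *Ttn* was lost with any untreated or dilated library left out (edgeR adjusted p between 0.0575 and 0.154), that of *Ldb3* with untreated library 3 or either dilated library left out (0.0579 to 0.0665), and that of *Mybpc1* was kept with each of the 8 libraries left out.

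**Figure D5:**
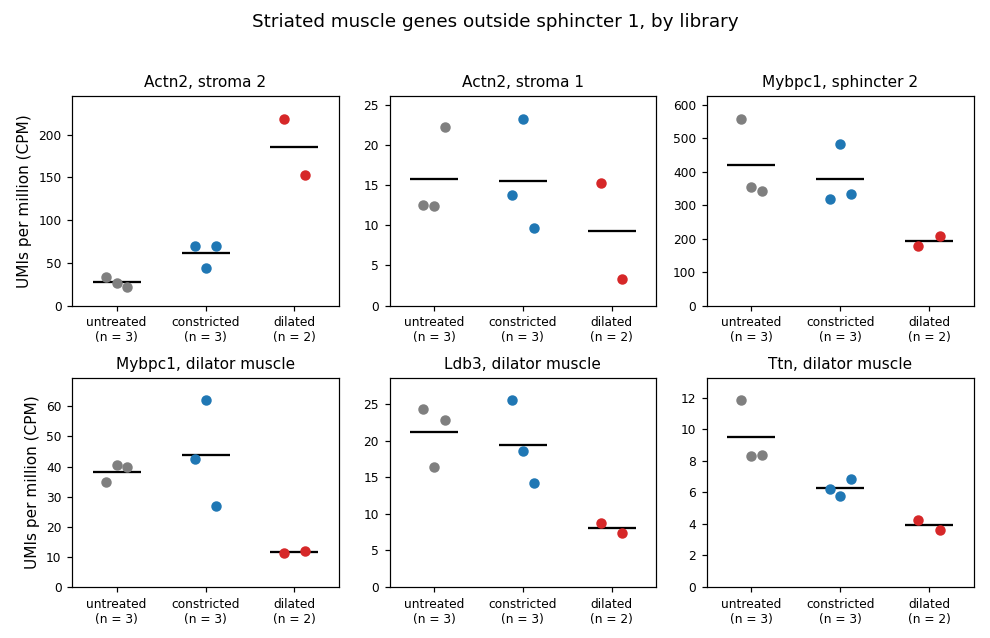
Levels of *Actn2* in stroma 2 and stroma 1, *Mybpc1* in sphincter 2 and dilator muscle, and *Ldb3* and *Ttn* in dilator muscle, with 1 point per library and a bar at the mean; y axes are CPM and start at 0. *Actn2* in stroma 2 is at 153 and 219 CPM in the dilated libraries and at 21.2 to 33.8 CPM in untreated ones, and the other genes shown are lower in dilated libraries except *Actn2* in stroma 1, which overlaps.

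*Actn2* went the other way, and in stroma 2, the larger of the stromal classes. It was at 33.8, 26.6 and 21.2 CPM in untreated, 69.5, 44.1 and 69.5 CPM in constricted and 219 and 153 CPM in dilated libraries, from 28, 85 and 75, 124, 41 and 106, and 812 and 262 UMIs. The 3 conditions did not overlap, and the share of all genes in stroma 2 with this pattern was not counted. *Actn2* rose by 2.87 on the log2 scale after dilation (SE 0.24, edgeR adjusted p = 0.000107), where 221 of 12788 genes were called (1.73%), and the call was kept with each library left out, at 2.65 to 3.06. Nuclei with an *Actn2* UMI made up 3.87% to 7.22% of stroma 2 in untreated, 10.8% to 11.4% in constricted and 18.8% and 24.6% in dilated libraries. After constriction, where 2 of 12788 genes were called (0.0156%), the log2 fold change was 1.25 ± 0.23 (edgeR adjusted p = 0.205), and it passed the test when genes with low counts were kept or the replicate number was fitted. Over all conditions, 79.3% of the 1934 *Actn2* UMIs were in stroma 2.

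Stroma 1 gave no such difference for *Actn2*, at 12.6, 12.4 and 22.2 CPM in untreated and 15.3 and 3.33 CPM in dilated libraries (log2 fold change -0.75 ± 0.56, edgeR adjusted p = 0.618). Whether the stromal classes differed was not tested. Beside the rise of *Actn2*, 4 endothelium markers in stroma 2 summed to 133 to 152 CPM in untreated and 460 to 685 CPM in dilated libraries, most of it *Cldn5*. On the means, *Cldn5* (112 and 502 CPM) and *Erg* (5.93 and 40.9) were higher after dilation. *Pecam1* (26.7 and 28.5) and *Cdh5* (0.602 and 0.809) had overlapping ranges. The stroma 2 markers summed to 4987 to 6278 and 4781 to 5154 CPM. The skeletal fibre markers in stroma 2 were at 7.08 to 21.8 and 8.18 to 14.6 CPM, and the cardiomyocyte markers at 1.88 to 6.04 and 4.58 to 4.67 CPM. The part of these differences in the *Actn2* result was not tested.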

How the data were processed

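Nuclei of mouse irises were profiled in 8 snRNAseq libraries (10× Genomics Chromium 3′ v3). The authors aligned reads to a pre-mRNA index of mm10 with Cell Ranger 3.1.0 and deposited raw UMI counts for each nucleus, after filtering nuclei on their share of mitochondrial transcripts and, as the values in the files show, their number of detected genes. The authors also deposited a cell type for each nucleus, from clustering in Seurat, and the percent of mitochondrial transcripts. The labels do not say which library was in which of the study's processing batches or sequencing runs.

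Here the UMIs of each cell type were summed within a library and expressed as counts per 1e+06 (CPM). The listed genes, the further gene lists and the markers were chosen with earlier results of these data known. Differences between conditions were tested with edgeR 4.0.16 in R 4.3.3 (TMM, filterByExpr, glmQLFit and glmQLFTest, two-sided) in 1 fit of all 8 libraries per cell type, adjusted by Benjamini-Hochberg over all genes tested there. The thresholds were 0.6 for the size of the log2 fold change and 0.05 for the adjusted p. Standard errors are the log2 fold change over the root of F. On simulated counts for dilated against untreated in sphincter 1, 28 of 95 genes with a log2 change of 1, 88 of 105 with a change of 2 and 3 of 6912 unchanged genes were called over 7112 genes. These counts were drawn with the spread fitted to the same data, equal in all conditions and with no batch. They therefore do not measure how many false calls the real libraries give. No test between cell types was made, because the clusters come from the same counts. Libraries are separate pools of irises, and p-values measure the spread between pools.

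Nuclei were thinned at random to 1000 UMIs, leaving out 4 untreated, 2 constricted and 5 dilated sphincter 1 nuclei. Scrublet (scanpy 1.11.5, 30 components, per library) called 7.52% of sphincter 1 nuclei doublets. These were removed only in an alternative. A gene at 0 was compared with a floor of 3 counts over the condition, which covers counting error only. Spans came from GENCODE vM21, matched by name for 22498 of 22873 genes, and promoters from RefSeq tables on GRCm38.p6. Named genes were all those of the list, each gene called in sphincter 1 and the 3 with most UMIs in untreated sphincter 1 from each further list, and the 10 most correlated genes. *Lrrtm3*, *A930016O22Rik*, *Acta1*, *Tnni1*, *Myh3*, *Myh13*, *Cacna1s*, *Dct*, *Tyr*, *Sox10*, *Tfap2a*, *Zic1*, *Otx1*, *Cldn5*, *Erg*, *Pecam1*, *Cdh5*, *Mypn*, *Des* and *Pdlim5* are named beside this rule, with their values already known. Alternatives were relative log expression size factors, DESeq2 1.42.0, no filter on low counts, the compared groups alone, each library left out, the replicate number or the series of library numbers as a block, no fold threshold, and subsets of nuclei. Further listed genes that were not matched in the tables were not analysed here.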

Additional observations from a re-analysis of the deposited data

Results flagged for a closer look

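Under the same treatment, 3 pairs of cell types moved in opposite directions in all of their libraries. They came from a scan of the 9 genes over 10 cell types and both comparisons, with a low minimum of UMIs. How often this occurs over all genes was not counted, and the difference between the cell types was not tested. After constriction *Mybpc1* was higher in iris PE in every constricted library than in every untreated library, 1.32-fold on the means, where it did not pass the test (log2 fold change 0.44, edgeR adjusted p = 0.999), and lower in CB in every library, at 0.0866 of the untreated mean, from 9 untreated and 1 constricted UMIs. After dilation *Neb* was higher in CBE in both libraries, 1.79-fold on the means, from 6 untreated and 20 dilated UMIs, while it was lower in CB, at 0.396 of the untreated mean, and in stroma 2, at 0.733. Outside iris PE, at most 23 UMIs per condition stand behind each of these values.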

How the results depend on the processing

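Of the 7112 genes tested in sphincter 1 after dilation, 139 were called, against 86 by DESeq2, 210 with no filter on low counts (19773 genes tested), 211 with only the groups compared, 325 with the series of library numbers as a block, 68 without nuclei with a UMI of another type's marker (3203 genes tested, chosen after seeing the data) and 41 to 186 with 1 library left out, lowest without untreated library 2 (71), untreated library 3 (45), dilated library 1 (61) or dilated library 2 (41). After constriction 0 were called, against 14 by DESeq2, 28 with no filter, 23 with the series as a block, 3 without doublets, 6 without nuclei with another type's marker and 0 to 7 with 1 library left out. The causes were not tested. *Ttn* was called lower under all 18 alternatives, with log2 fold changes between -2.08 and -1.62. No called result changed sign. After constriction, where none was called, the log2 fold change of *Ckm* was 0.17 with the series as a block and between -0.43 and 0.0047 with 1 library left out (above 0 without untreated library 2), against -0.16, and that of *Myf6* was between -0.16 and 0.84 (below 0 without constricted library 3), against 0.41. DESeq2 called *Ttn*, *Ctnna3* and *Ldb3* and gave no adjusted p for *Myf6* and *Synpo2l*.

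With the replicate number as a block, 124 genes were called after dilation and 3 after constriction, and *Synpo2l* was lost (edgeR adjusted p = 0.170). The labels give no pairing beyond the number. Over 7 pairs with the same number, the correlation of their deviations was between -0.0728 and 0.178, and 2 exceeded 0.1. The deviations of the 2 dilated libraries mirror each other, so for them the correlation cannot decide on a pairing. Untreated and dilated library 1 shared 63 barcodes, 59 of them with the same cell type. It was 13 of 14 for untreated and constricted library 1 and 11 of 18 for constricted and dilated library 1. Outside sphincter 1, 6 pairs of a gene and a cell type were called with the block or with no filter, against 5, the added one being *Actn2* in stroma 2 after constriction. The count of 7 of 9 genes highest in sphincter 1 was 7 under all 9 alternatives, which included thinning, doublet removal and each untreated library left out. With 1 dilated library left out, the remaining one is assumed to vary like the other conditions. Depth limits *Myf6*, *Synpo2l*, *Neb* and *Actn2* in sphincter 1, where a library held at most 43 UMIs of any of them.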
